A study of Mus musculus with 6 samples.

Results

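The genes of glycolysis and pyruvate use were followed in whole ovaries of C57BL/6 mice at day 1, with transcript levels in FPKM (fragments per kilobase of transcript, relative to the mapped fragments of the library). The 35 genes were chosen by symbol for what their proteins do, with earlier results of these data known. All 35 were among the 25164 symbols of the deposited table. Of them 34 averaged 1 FPKM or more over the 6 libraries and were tested, and Pfkp, at a mean of 0.997 FPKM, was just under that minimum. Of the libraries 3 were made from ovaries with both Hnrnpl alleles floxed in the presence of Stra8-cre (called cKO) and the other 3 from wild type ovaries, as the titles and genotype labels give them. The Hnrnpl product binds RNA and regulates splicing, and the series names synapsis genes, mTOR and primordial follicles as what its loss may touch. Stra8-cre drives recombination in germ cells, so the somatic cells of a cKO ovary should keep their Hnrnpl, which whole-ovary values cannot show. The labels do not say whether the wild type animals carried the floxed alleles or the transgene. The protocol, the same for both groups, mentions a hormone challenge and does not name the hormone. Whether the libraries within a group stem from different animals is not stated, so the p-values measure only the spread between these libraries.

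Glycolysis carries glucose, brought in by transporters of the SLC2 family, through a chain of cytosolic enzymes to pyruvate. Pyruvate is either turned into lactate by lactate dehydrogenase and exported, or taken into mitochondria by the pyruvate carrier and turned into acetyl-CoA by the pyruvate dehydrogenase complex, which the pyruvate dehydrogenase kinases switch off by phosphorylation. In the ovary the oocyte is known for poor use of glucose and for its reliance on pyruvate, which the surrounding granulosa cells make by glycolysis.

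Hnrnpl itself measured 100.5, 81.5 and 85.2 FPKM in cKO, while the values were 104.1, 93.8 and 101.9 FPKM in wild type, with overlapping groups (log2 fold change -0.17, SE 0.13, limma adjusted p = 0.571; exact two-sided permutation p = 0.2). The value covers all cells and the whole gene, so it is a weak check of the labels. Estimated depth was lowest in cKO replicate 1 and highest in wild type replicate 1, where 1 FPKM of a transcript of 2 kb stood for about 14.5 and 28.6 fragments. Replicate 1 of the cKO group stands apart: its total FPKM was 335667, while the remaining 5 libraries had 223845 to 246121. It was the highest of the 6 libraries for 58% of all 12442 tested genes. Values are therefore also given after median-of-ratios scaling, which divides a library by the typical (median) ratio of its genes to their geometric means, 1.18 for this library and 0.949 to 0.989 for the others. Scaled in this way, Hnrnpl was at 85.5, 84.2 and 87.5 in cKO and at 105.3, 95.4 and 107.4 in wild type, lower in cKO without overlap (log2 fold change -0.26, SE 0.08, limma adjusted p = 0.15). Without cKO replicate 1 its log2 fold change as deposited was -0.26, and without cKO replicate 2 it was -0.11. Ovarian markers were present in every library, among them Foxl2, a transcription factor of granulosa cells, at 57.5 to 86.5 FPKM and Dazl, an RNA-binding protein of germ cells, at 9.34 to 39.0 FPKM.

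The ovaries expressed a tested gene for each step from hexokinase to lactate dehydrogenase. In FPKM, a level per transcript length, the means of the tested members ran from 1.03 for Eno2 to 201 for Ldhb. Ldhb, the lactate dehydrogenase subunit that favours turning lactate back into pyruvate, was the most abundant member, at a mean of 201 FPKM over the 6 libraries and rank 117 among the tested genes. Pkm, the pyruvate kinase of most tissues, followed at 155 FPKM, and Aldoa, the aldolase of muscle and most other tissues, at 153 FPKM. The means of Pkm and Aldoa differed by less than the spread between libraries. Next came the triose phosphate isomerase gene Tpi1 (72.8 FPKM), Ldha (56.6 FPKM), which encodes the other lactate dehydrogenase subunit, and the enolase gene Eno1 (56.4 FPKM). Pgam1, Gpi1, Gapdh and Pgk1, which encode phosphoglycerate mutase, glucose phosphate isomerase, glyceraldehyde phosphate dehydrogenase and phosphoglycerate kinase, lay between 29.0 and 41.7 FPKM. Gapdh and several others have near-identical pseudogenes or retrogene copies, with which reads may be shared, so the levels of such genes are uncertain.

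Glucose uptake and the hexokinase step had lower FPKM than most of the glycolytic enzymes that follow. Slc2a1, the transporter of basal glucose uptake, had a mean of 6.12 FPKM and Slc2a3, a transporter of high affinity, one of 1.81 FPKM. Hk1 and Hk2, the hexokinases that trap glucose in the cell, had means of 6.73 and 1.54 FPKM. Of the phosphofructokinase subunits, which form the committed step, Pfkm (13.8 FPKM) and Pfkl (12.3 FPKM) were near each other and Pfkp, the platelet type, was lowest. Pfkfb2, Pfkfb3 and Pfkfb4, bifunctional enzymes that set the level of the phosphofructokinase activator fructose 2,6-bisphosphate, had means of 3.70, 3.52 and 1.77 FPKM. Aldoc (aldolase of brain), Eno2 (enolase of neurons) and Eno3 (enolase of muscle) were low too, at means of 1.43, 1.03 and 3.94 FPKM. Isozyme genes known from muscle were not all low, since Pfkm was the highest of its family and Aldoa had a mean of 153 FPKM. The 10 skeletal muscle markers together summed to between 4.51 and 7.99 FPKM in any library, with Actc1 listed at 0 in all 6.

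**Figure D1:**
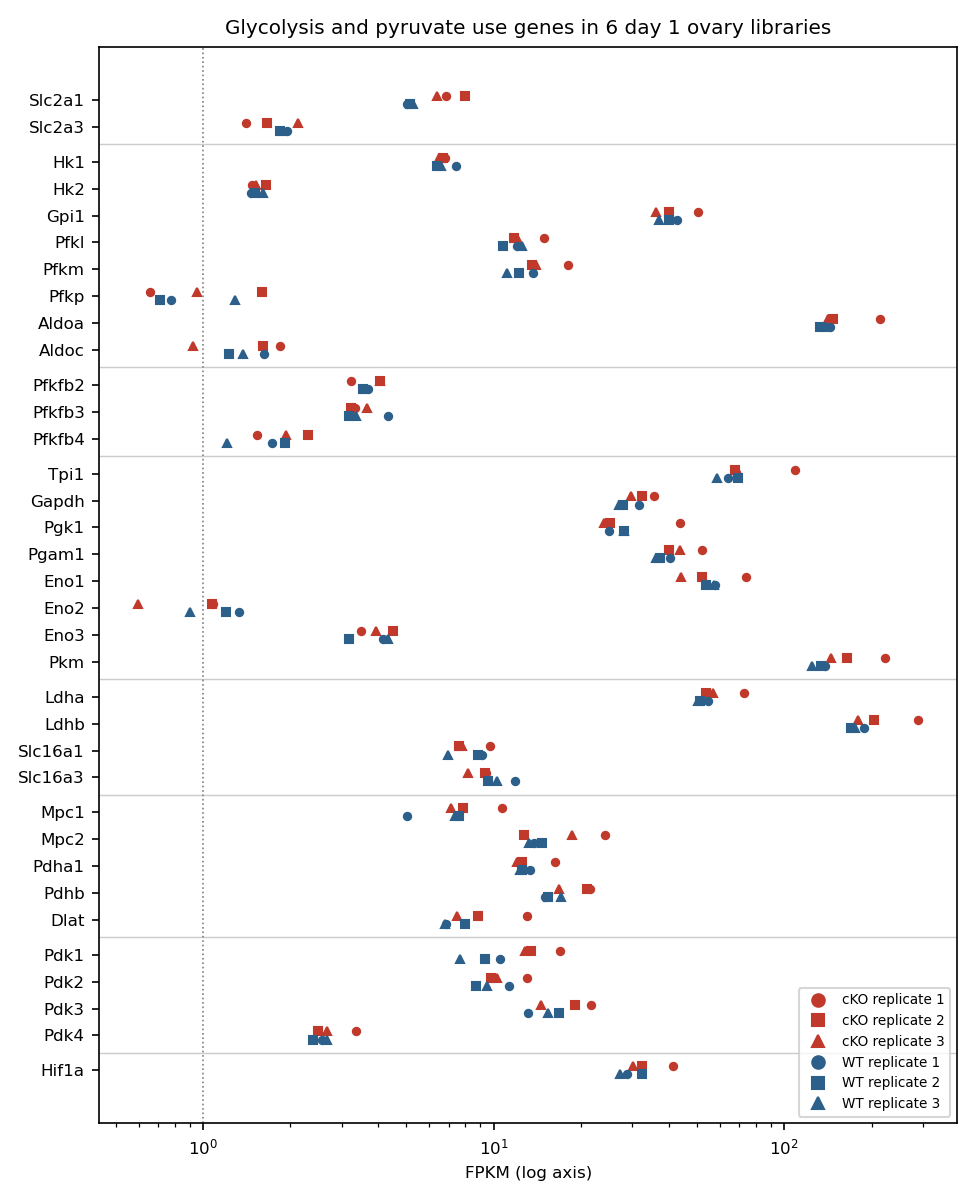
FPKM (log axis) of the 35 genes, grouped by role from glucose uptake at the top to Hif1a at the bottom, with 1 point per library (red cKO, blue wild type, shapes for replicate numbers); the dotted line marks 1 FPKM, the lowest mean that was tested. Ldhb, Pkm and Aldoa lie above 100 FPKM in all 6 libraries, and the red circle of cKO replicate 1 is the rightmost point in many rows.

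No member passed when cKO and wild type ovaries were compared over all genes. Of 34 tested members 0 were called higher and 0 lower at an adjusted p under 0.05 (limma on log2(FPKM + 1), Benjamini-Hochberg over 12442 genes), where 0.121% of all tested genes were called, 0.0482% higher and 0.0723% lower. The smallest adjusted p among the members was 0.166, for Pdk1. At an unadjusted p under 0.05 there were 3 members, Pdk1, Slc2a1 and Pdhb, all with higher means in cKO. That is 8.82% of the members, against 14.2% of all tested genes, 9.89% with higher and 4.26% with lower means. After scaling 0 members passed as well, against 1.29% of all genes, and 4 (11.8%) had an unadjusted p under 0.05, against 18.9% of all genes (9.53% higher, 9.41% lower): Pdk1, Slc2a1 and Pkm with higher means and Slc16a3 with a lower one. The members' log2 fold changes ran from -0.21 to 0.60.

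Most members nonetheless had positive fold changes. Values were positive for 28 of 34 members (82.4%), against 65.2% of all tested genes, and the members' median log2 fold change was 0.16, against 0.08 over all genes. After scaling 21 of 34 (61.8%) were positive, against 50% of all genes, and the medians were 0.08 and 0.00. Rescaling each library to the same sum (TPM) left 16 of 34 members positive, and 3832 of all 12442 tested genes. The medians were then -0.03 for the members and -0.12 for all genes. The members' median thus changed sign with the scaling, and each time it lay above the median of all genes. In bulk tissue, fewer cells of a type and less RNA per cell cannot be told apart.

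**Figure D2:**
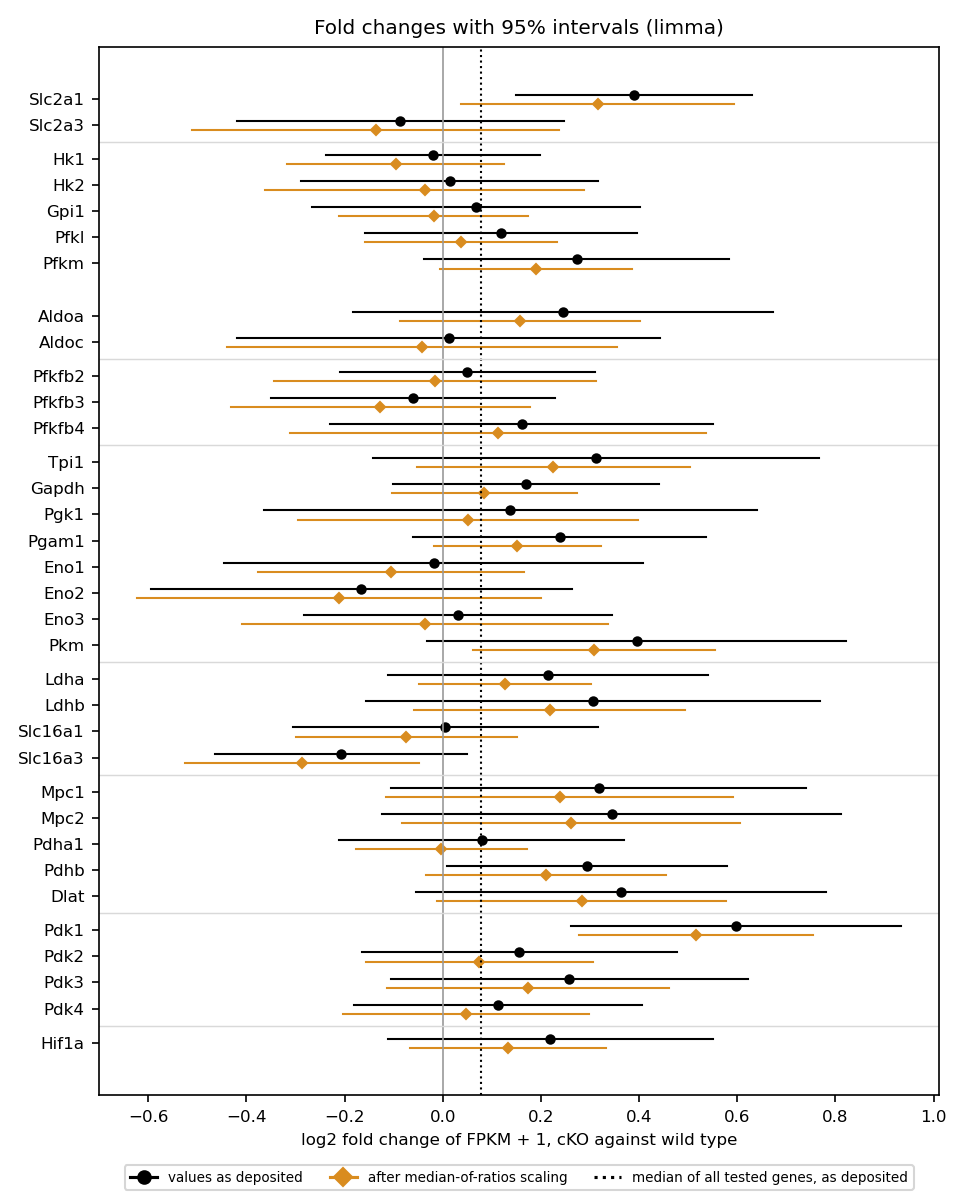
Log2 fold change of FPKM + 1 in cKO against wild type for the 34 tested genes, with 95% intervals from limma, for the values as deposited (black) and after median-of-ratios scaling (orange); the dotted line is the median of all tested genes, 0.08. Pdk1 lies farthest to the right at 0.60 and Slc16a3 farthest to the left at -0.21, and most intervals cover 0.

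In 4 members the groups did not overlap, 3 with higher values in cKO and 1 with lower. That is 11.8% of the tested members, against 22.6% of all genes (15.5% with higher and 7.03% with lower values in cKO). Pdk1, Slc2a1 and Pkm had the higher values and Slc16a3 the lower. After scaling Pfkm, Pgam1 and Ldha joined those with higher values, which made 7 of 34 (20.6%), against 25.6% of all genes (12.6% higher, 13% lower). The promoter windows of these 4 are shown because they are the members whose groups separate and because Hif1a, the oxygen-regulated factor that is itself a member, is known to act on many glycolytic genes through sites with the core ACGTG or GCGTG. Each window is taken from RefSeq (GRCm38.p6), reaches from 250 bases before to 50 bases after the gene's start site farthest upstream in that table, and is written 5′ to 3′ on the plus strand, with both cores on either strand in capitals. The windows lie at chr4:119108495-119108794 for Slc2a1, chr9:59656326-59656625 for Pkm, chr11:120948817-120949116 for Slc16a3 and chr2:71872974-71873273 for Pdk1.
Slc2a1: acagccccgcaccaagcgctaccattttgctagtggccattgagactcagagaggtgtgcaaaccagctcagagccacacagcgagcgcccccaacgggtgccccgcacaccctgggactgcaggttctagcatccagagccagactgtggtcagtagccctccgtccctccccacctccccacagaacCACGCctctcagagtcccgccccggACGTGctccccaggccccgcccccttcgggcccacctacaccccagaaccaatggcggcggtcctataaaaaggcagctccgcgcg
Pkm: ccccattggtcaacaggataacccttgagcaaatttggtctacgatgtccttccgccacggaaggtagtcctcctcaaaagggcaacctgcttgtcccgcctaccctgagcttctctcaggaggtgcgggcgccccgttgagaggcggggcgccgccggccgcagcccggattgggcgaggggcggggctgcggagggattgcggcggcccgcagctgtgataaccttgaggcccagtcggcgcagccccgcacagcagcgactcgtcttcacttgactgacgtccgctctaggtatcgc
Slc16a3: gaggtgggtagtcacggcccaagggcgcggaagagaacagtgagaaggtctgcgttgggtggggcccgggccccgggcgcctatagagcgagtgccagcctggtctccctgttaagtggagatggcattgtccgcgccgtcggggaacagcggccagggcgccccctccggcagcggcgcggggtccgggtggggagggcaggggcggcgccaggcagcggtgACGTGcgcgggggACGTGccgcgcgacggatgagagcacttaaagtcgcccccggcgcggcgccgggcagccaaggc
Pdk1: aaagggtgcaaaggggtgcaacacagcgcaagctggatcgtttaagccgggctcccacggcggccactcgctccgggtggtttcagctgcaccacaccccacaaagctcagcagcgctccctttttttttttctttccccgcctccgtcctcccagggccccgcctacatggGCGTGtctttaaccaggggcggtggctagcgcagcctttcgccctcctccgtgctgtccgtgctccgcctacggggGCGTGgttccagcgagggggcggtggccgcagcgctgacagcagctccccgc
The Slc2a1 window holds 1 match of each core, beginning at -61 and -36 from the start site. Slc16a3 has ACGTG at -27 and -14, and Pdk1 has GCGTG at -78 and -2. No match was in the window of Pkm. RefSeq windows were at hand for 34 of the 35 members, Slc2a3 being the exception. Of these 27 (79.4%) held at least 1 core, as did 64.5% of 9765 tested genes with 1 window each and 43.8% of all 32851 windows of the same length. ACGTG alone, with CACGTG counted once on each strand, was in 15 of 34 members' windows (44.1%), 26.5% of tested genes' windows and 19.6% of all windows. Ldha held the most, 7 matches.

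Pdk1, a kinase that switches off pyruvate dehydrogenase and so limits the entry of pyruvate into the citric acid cycle, had the largest fold change of the members. On chromosome 2 from 71873215 to 71903858 (GRCm38), it stood at 16.9, 13.5 and 12.8 FPKM in cKO replicates 1, 2 and 3 and at 10.5, 9.31 and 7.67 FPKM in wild type replicates 1, 2 and 3. All cKO values lay above all wild type values. The log2 fold change was 0.60 (SE 0.15, 95% interval 0.26 to 0.93, limma adjusted p = 0.166). A two-sided exact permutation test returned p = 0.1, the smallest that 3 against 3 libraries allow. After scaling the values were 14.4, 13.9 and 13.1 against 10.6, 9.47 and 8.08, still without overlap and with cKO replicate 1 close to the other cKO libraries. The log2 fold change was then 0.52 (SE 0.10, limma adjusted p = 0.0587). Without cKO replicate 1 it was 0.48, and over all alternatives it ran from 0.43 to 0.69, with limma adjusted p from 0.0565 to 0.483.

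Slc2a1 (chromosome 4, 119108745 to 119137330) stood at 6.87, 7.99 and 6.41 FPKM in cKO and at 5.03, 5.15 and 5.28 FPKM in wild type. The lowest cKO value lay above the highest wild type value, and here cKO replicate 2, not replicate 1, was the highest. The log2 fold change was 0.39 (SE 0.10, 95% interval 0.15 to 0.63, limma adjusted p = 0.190; exact permutation p = 0.1). After scaling the cKO values were 5.84, 8.26 and 6.58 and the wild type values 5.09, 5.24 and 5.56, which still do not overlap (log2 fold change 0.32, limma adjusted p = 0.216). Over all alternatives the limma adjusted p ran from 0.0819 to 0.494. Slc2a3 overlapped between the groups at 1.41 to 2.13 FPKM in cKO against 1.85 to 1.94 FPKM in wild type.

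Pkm, which makes pyruvate in the last step of glycolysis (chromosome 9, 59656576 to 59679372), stood at 223, 164 and 144 FPKM in cKO and at 138, 134 and 125 FPKM in wild type. The groups did not overlap, and cKO replicate 1 was far above the other cKO libraries. Its log2 fold change of 0.40 (SE 0.18, 95% interval -0.03 to 0.82) had a limma adjusted p of 0.379 and an exact permutation p of 0.1. After scaling the values were 190, 169 and 148 against 139, 137 and 131, and the log2 fold change was 0.31 (SE 0.11, limma adjusted p = 0.183). Without cKO replicate 1 the log2 fold change was 0.22. Over all alternatives its limma adjusted p ran from 0.183 to 0.712. Pkm gives rise to the M1 and M2 forms by splicing of mutually exclusive exons, which a gene-level FPKM does not separate.

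Slc16a3, a lactate exporter typical of glycolytic cells (chromosome 11, 120948484 to 120959000), was the member with lower values in cKO. It stood at 9.43, 9.38 and 8.16 FPKM in cKO and at 11.8, 9.55 and 10.3 FPKM in wild type. The groups met closely, with 9.43 and 9.55 FPKM as the nearest values. The log2 fold change was -0.21 (SE 0.11, 95% interval -0.47 to 0.05, limma adjusted p = 0.434; exact permutation p = 0.1), and after scaling it was -0.29 (SE 0.10, limma adjusted p = 0.195). Without wild type replicate 1 it was -0.13. Over all alternatives its limma adjusted p ran from 0.155 to 0.749. Slc16a1, a transporter that moves lactate and pyruvate either way, stood at 7.60 to 9.69 FPKM in cKO against 6.99 to 9.14 FPKM in wild type, with overlapping groups.

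**Figure D3:**
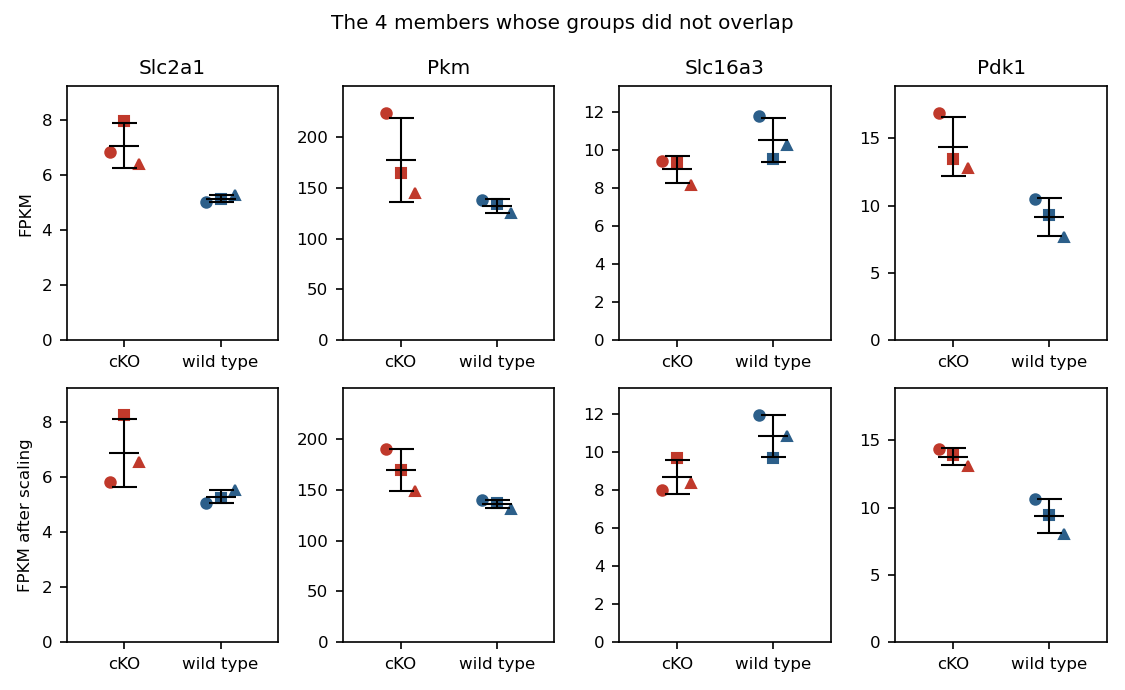
FPKM of the 4 members whose groups did not overlap, as deposited (top) and after median-of-ratios scaling (bottom); each point is 1 library (circle, square and triangle for replicates 1, 2 and 3) and the bars show the mean ± SD of 3 libraries, on axes that start at 0. Pdk1 in cKO narrows from 12.8 to 16.9 FPKM before scaling to 13.1 to 14.4 after it.

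In the first phase of glycolysis 0 of 7 tested members passed, and the values of the groups overlapped in all 7. Of all tested genes 0.121% passed and 22.6% were without overlap. Aldoa stood at 214, 147 and 142 FPKM in cKO and at 144, 133 and 139 FPKM in wild type. Here cKO replicate 1 alone lay far above the rest, and the log2 fold change, 0.24 as deposited (SE 0.19, limma adjusted p = 0.552), was 0.16 after scaling and 0.06 without that library. Gpi1, Hk1, Hk2, Pfkl and Aldoc had group means within 10% of each other. Pfkm differed more, at 13.6 to 18.0 FPKM in cKO against 11.1 to 13.7 FPKM in wild type, and its groups separated only after scaling (14.1 to 15.3 against 11.7 to 13.8). Pfkfb2 stood at 3.23, 4.07 and 4.07 FPKM in cKO and at 3.68, 3.56 and 3.59 FPKM in wild type (log2 fold change 0.05, SE 0.11, limma adjusted p = 0.853). After scaling this was -0.016, and without cKO replicate 1 it was 0.14.

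The second phase, from triose phosphate to pyruvate, had 0 of 8 members called, and Pkm was the sole one without overlap. Over all tested genes 0.121% were called and 22.6% were without overlap. Tpi1 stood at 109, 67.6 and 68.7 FPKM in cKO and at 64.1, 69.4 and 58.7 FPKM in wild type. Pgk1 had a like pattern, with 43.8 FPKM in cKO replicate 1 and 24.0 to 28.1 FPKM in the other 5 libraries. In both genes a single library stood out and the others overlapped. Gapdh, often used as a reference gene, stood at 29.6 to 35.8 FPKM in cKO against 27.1 to 31.6 FPKM in wild type. Pgam1, at 40.0 to 52.1 and 36.3 to 40.6 FPKM, separated by group after scaling, at 41.4 to 44.9 against 38.0 to 41.0.

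Eno1 and its copy Eno1b showed unequal values. Eno1b is a retrogene with a sequence close to that of Eno1, so reads may be divided between them by the mapping. Eno1 stood at 73.8, 52.0 and 44.2 FPKM in cKO and at 57.7, 53.6 and 57.1 FPKM in wild type, with overlap. Eno1b, which was not a member, stood at 28.0, 22.7 and 21.6 FPKM in cKO and at 19.2, 14.9 and 16.9 FPKM in wild type, without overlap (log2 fold change 0.48, SE 0.14, limma adjusted p = 0.207). Eno1b held 27.5%, 30.4% and 32.9% of the FPKM of the pair in cKO and 25.0%, 21.8% and 22.8% in wild type, groups that do not overlap either. Their sum was 80.8 ± 18.7 FPKM in cKO, with 73.2 ± 4.26 FPKM in wild type (SD, n = 3; exact two-sided permutation p = 0.8).

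As deposited, both lactate dehydrogenase subunits overlapped between the groups. Ldhb stood at 289, 203 and 180 FPKM in cKO and at 188, 170 and 175 FPKM in wild type (log2 fold change 0.31, SE 0.20, limma adjusted p = 0.505). Again cKO replicate 1 was far above the other 5 libraries. The log2 fold change was 0.11 without it and 0.22 after scaling. Ldha stood at 72.8, 53.6 and 56.9 FPKM in cKO and at 54.7, 51.1 and 50.5 FPKM in wild type, and after scaling at 55.4 to 61.9 against 52.0 to 55.3, narrowly without overlap. Within a library a factor common to all genes cancels in a share. The shift of cKO replicate 1 was not common to all genes. Over all tested genes its median deviation was 0.29 (log2) for short and 0.16 for long transcripts, so it need not cancel. Ldhb made up 79.9%, 79.1% and 76.0% of the FPKM of the pair in cKO and 77.4%, 76.9% and 77.6% in wild type. The Ldhb share overlapped between the groups and lay within 4 percentage points over all 6 libraries.

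Of the genes for pyruvate entry and oxidation 0 of 5 passed, against 0.121% of all tested genes. As deposited 5 of 5 had positive fold changes, where 65.2% of all tested genes did, and 4 of 5 after scaling, where 50% did. The exception was Pdha1, whose sign turned under 6 of 16 alternatives. Pdhb, the beta subunit of pyruvate dehydrogenase, stood at 21.5, 20.9 and 16.7 FPKM in cKO and at 14.99, 15.4 and 17.1 FPKM in wild type. The third cKO library lay inside the wild type range. Its log2 fold change was 0.29 (SE 0.12, 95% interval 0.01 to 0.58, limma adjusted p = 0.344), and 0.21 after scaling. Dlat, the acetyltransferase of the complex, had group means of 9.78 ± 2.86 and 7.21 ± 0.687 FPKM (SD, n = 3), and Pdha1, the catalytic alpha subunit, 13.6 ± 2.28 and 12.7 ± 0.532 FPKM. The carrier subunit genes Mpc1 and Mpc2 ranged from 7.11 to 10.7 and from 12.7 to 24.1 FPKM in cKO, and from 5.02 to 7.57 and from 13.3 to 14.7 FPKM in wild type. In all 5 genes cKO replicate 1 held the highest value, as it did in 58% of all tested genes.

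Of the pyruvate dehydrogenase kinase genes 0 of 4 passed, against 0.121% of all tested genes. Pdk1 took a larger share of the summed FPKM of the family in each cKO library than in any wild type library. Pdk3 was the most abundant of the 4, at 21.6, 19.0 and 14.6 FPKM in cKO and at 13.2, 16.7 and 15.4 FPKM in wild type, with overlap (log2 fold change 0.26, SE 0.16, limma adjusted p = 0.476). The log2 fold change of Pdk3 was 0.14 without cKO replicate 1, 0.41 without cKO replicate 3 and 0.17 without wild type replicate 1. Pdk2 stood at 9.83 to 13.1 and 8.67 to 11.3 FPKM, and Pdk4, a kinase induced by fasting in other tissues, at 2.49 to 3.37 and 2.40 to 2.66 FPKM. Pdk1 held 30.7%, 30.1% and 31.7% of the FPKM of the 4 genes in cKO and 28.0%, 25.1% and 21.8% in wild type. The means of these shares differ by 5.87 percentage points. The shares of Pdk2, Pdk3 and Pdk4 overlapped between the groups.

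**Figure D4:**
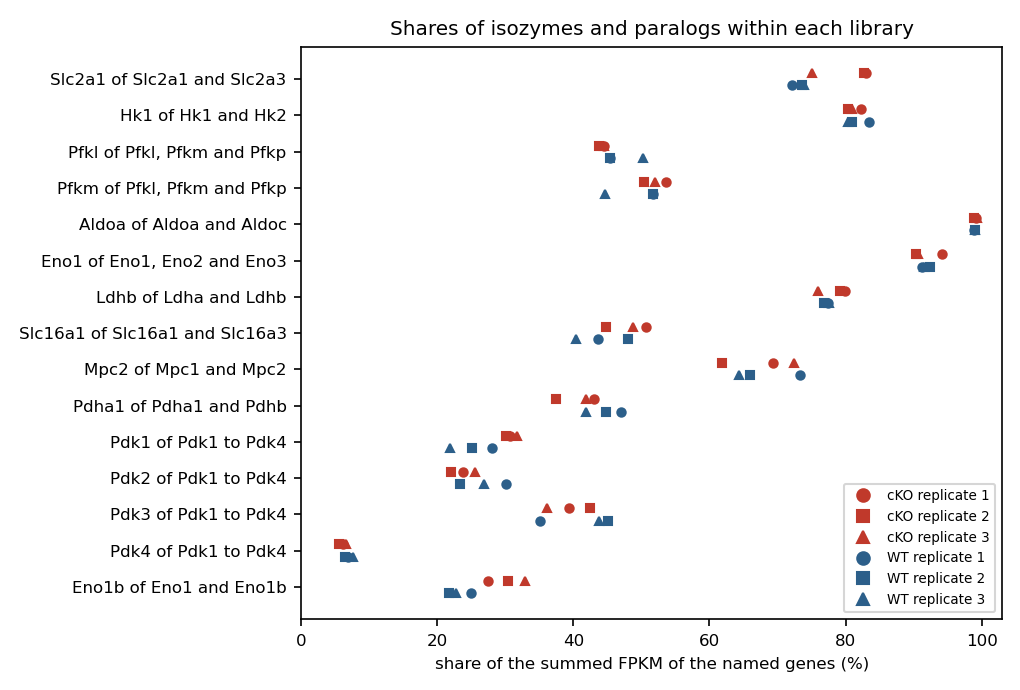
Share of each named gene in the summed FPKM of its isozymes or paralogs, in percent, with 1 point per library (red cKO, blue wild type, shapes for replicate numbers). The groups separate for Slc2a1, Pfkl, Pdk1 and Eno1b and overlap in the other 11 rows, among them Ldhb of Ldha and Ldhb at 76.0% to 79.9%. How often the shares of other gene families separate was not counted.

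In the other families the shares of Slc2a1 and Pfkl separated by group. Hk1 made up 80.3% to 83.5% of the hexokinase FPKM and Aldoa 98.9% to 99.4% of the aldolase FPKM over the 6 libraries, with overlapping groups. Slc2a1 made up 83.0%, 82.7% and 75.1% of the FPKM of the 2 transporters in cKO and 72.1%, 73.6% and 73.9% in wild type, without overlap and with means 7.07 percentage points apart. Pfkl made up 43.7% to 44.5% of the phosphofructokinase FPKM in cKO and 45.4% to 50.2% in wild type, also without overlap. No test was made on these shares, and how often the shares of other gene families separate was not counted.

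Hif1a, the oxygen-regulated subunit of hypoxia-inducible factor, stood at 41.5, 32.5 and 30.1 FPKM in cKO and at 28.8, 32.4 and 27.3 FPKM in wild type. The groups overlapped, and the log2 fold change was 0.22 (SE 0.14, limma adjusted p = 0.505). It was 0.13 after scaling, 0.09 without cKO replicate 1 and 0.02 with TPM rescaling. Its protein is controlled mainly by degradation, which transcript levels do not show. In the list of 31 further hypoxia regulators and targets 28 were tested and 0 passed, with 17 positive values (60.7%, against 65.2% of all tested genes), 11 negative ones and a median of 0.07. After scaling 13 were positive and 15 negative, with a median of -0.02. Bnip3, a mitophagy receptor, stood at 16.5, 8.90 and 7.35 FPKM in cKO and at 5.74, 5.48 and 4.67 FPKM in wild type (log2 fold change 0.85, SE 0.25, limma adjusted p = 0.218). Without cKO replicate 1 the log2 fold change of Bnip3 was 0.53. Car9, a carbonic anhydrase that is a standard hypoxia marker, stood lower at 1.77 ± 0.332 FPKM against 2.84 ± 0.471 FPKM (SD, n = 3; adjusted p = 0.241 by limma). Hif1an, an inhibitor of the factor, stood at 12.4 ± 1.53 and 9.90 ± 0.400 FPKM (limma adjusted p = 0.301).

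Replicate 1 of the cKO group held the highest value in 24 of 34 tested members (70.6%), against 58% of all tested genes. The members' median deviation from their gene means was 0.29 (log2) in that library, where all tested genes had 0.20, and between -0.11 and 0.00 in the other 5. After scaling it was 0.09 in cKO replicate 1, 0.05 in cKO replicate 2, -0.01 in cKO replicate 3 and -0.05 to -0.01 in the wild type libraries. Members with short and long transcripts were alike in cKO replicate 1, with medians of 0.30 and 0.29, while over all tested genes split at the same length these were 0.29 and 0.16. Without this library the members' median log2 fold change was 0.09 and that of all genes 0.00, and 0 members passed.

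**Figure D5:**
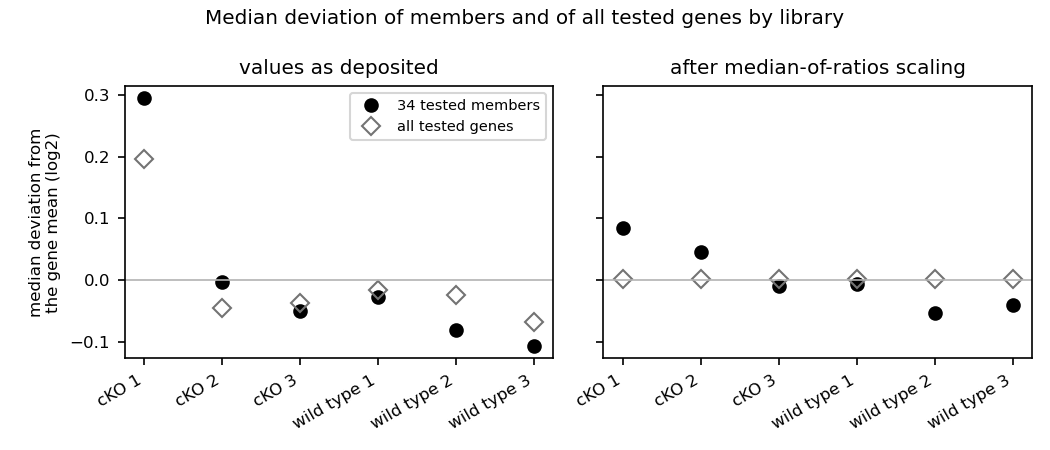
Median deviation of log2(FPKM + 1) from the gene mean in each library, for the 34 tested members (filled circles) and all tested genes (open diamonds), as deposited (left) and after median-of-ratios scaling (right). The members sit at 0.29 in cKO replicate 1 before scaling and between -0.05 and 0.09 in all libraries after it.

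Other genes of the pathway gave the same count of calls, 0 in each list. Of all tested genes 0.121% passed, and 65.2% were positive (50% after scaling). Of 29 further glycolytic isozymes and regulators 11 were tested, 7 positive and 4 negative, with a median of 0.14 (6 positive and a median of 0.09 after scaling). Besides Eno1b, Bpgm, which makes 2,3-bisphosphoglycerate, stood at 23.4 ± 5.08 and 15.9 ± 1.09 FPKM (SD, n = 3; adjusted p = 0.225 by limma), and Adpgk, an ADP-dependent glucokinase, at 14.1 ± 2.46 and 10.6 ± 0.301 FPKM (limma adjusted p = 0.274). The testis forms Pgk2, Ldhc and Gapdhs were listed at 0 or at most 0.549 FPKM in every library. Pgk2 was listed at 0 in all 6.

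Of 19 further pyruvate and lactate genes 12 were tested, 11 of them positive, with a median of 0.20 (10 positive and a median of 0.12 after scaling). Over all tested genes 65.2% were positive, and 50% after scaling. Gpt2, the mitochondrial alanine aminotransferase, stood at 3.74, 3.73 and 3.13 FPKM in cKO and at 1.95, 1.89 and 2.07 FPKM in wild type. The groups lay well apart, and the log2 fold change was 0.61 (SE 0.12, limma adjusted p = 0.101; exact permutation p = 0.1). Gpt2 passed with quantile normalization and with library weights. Slc16a4, a monocarboxylate transporter homolog, stood at 5.24 ± 0.815 and 3.39 ± 0.255 FPKM (SD, n = 3; adjusted p = 0.166 by limma), and Pcx, which feeds pyruvate into the citric acid cycle as oxaloacetate, at 4.46 ± 0.626 and 3.26 ± 0.548 FPKM (limma adjusted p = 0.301).

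In the pentose phosphate and branch list 25 of 26 genes were tested, 17 positive and 8 negative, with a median of 0.13 (13 positive and a median of 0.04 after scaling). Tktl1, a transketolase-like gene, stood at 9.78, 9.88 and 6.00 FPKM in cKO and at 5.03, 4.94 and 4.32 FPKM in wild type (log2 fold change 0.70, SE 0.18, limma adjusted p = 0.176). Tktl1 passed without cKO replicate 3. H6pd, the glucose 6-phosphate dehydrogenase of the endoplasmic reticulum, stood lower, at 10.1 ± 0.350 and 13.4 ± 0.918 FPKM (SD, n = 3; adjusted p = 0.177 by limma), and Khk, the fructose kinase, higher, at 7.56 ± 0.884 and 5.57 ± 0.969 FPKM (limma adjusted p = 0.274). The citric acid cycle list had 20 of 21 positive values and a median of 0.18, and cKO replicate 1 was the highest library for all 21. Of all tested genes 65.2% were positive, and that library was the highest for 58%. After scaling 16 of 21 were positive, with a median of 0.09, where 50% of all tested genes were positive. Its smallest p belonged to Fh1, Idh3a and Got1, with limma adjusted p of 0.398, 0.400 and 0.448.

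Regulators of glycolytic genes, 18 of 25 tested, had 12 positive values (66.7%, against 65.2% of all tested genes), 6 negative ones and a median of 0.06. After scaling 8 were positive and 10 negative, with a median of -0.02. Mycn, a MYC family factor, stood at 6.90 ± 0.808 FPKM in cKO, with 9.52 ± 0.939 FPKM in wild type, and Foxo3, which holds primordial follicles dormant, at 36.3 ± 2.61 and 28.0 ± 0.586 FPKM (SD, n = 3; adjusted p = 0.205 by limma for both). Atf4, a stress-induced transcription factor, stood at 108.4 ± 16.9 and 86.3 ± 2.46 FPKM (limma adjusted p = 0.373).

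Markers of several cell types moved with the groups as well. The 15 germ cell markers together summed to 153 to 277 FPKM in cKO against 131 to 142 FPKM in wild type, with Oosp1 at or near 0 throughout. After scaling the sums were 157 to 235 against 134 to 144. Taken singly, 7 of 14 tested were higher and 2 lower without overlap, as deposited and after scaling. Of all tested genes 15.5% were higher and 7.03% lower without overlap as deposited, and 12.6% and 13% after scaling. Of 14 tested, 0 passed higher and 1, the egg coat gene Zp3, passed lower, at 2.05 to 2.41 FPKM in cKO against 5.69 to 9.63 FPKM in wild type. After scaling 4 germ cell markers passed higher and 2 lower. Of all tested genes 0.121% passed as deposited and 1.29% after scaling. Scaled calls in the other lists were 1 pregranulosa, 2 stroma and 3 surface epithelium markers, all lower. The endothelial, erythroid and macrophage lists had 0. The 12 pregranulosa markers summed to 423 to 552 and 404 to 418 FPKM, and after scaling to 437 to 469.9 and 408.8 to 440.7, which overlap. Taken singly after scaling, 5 of the 12 were higher and 2 lower without overlap, against 12.6% and 13% of all tested genes. Sums were lower in cKO for stroma (10 markers, 812 to 891 against 1056 to 1108 FPKM), surface epithelium (9 markers, 143 to 221 against 233 to 256 FPKM) and the erythroid list (7 markers, 463 to 534 against 772 to 837 FPKM), whose globin genes may share reads. Of 5 tested erythroid markers 4 were negative and 1 positive. Lower without overlap were 0 as deposited and 2 after scaling, against 7.03% and 13% of all tested genes. Upk1b of the surface epithelium list passed lower, at 2.67 to 4.70 FPKM in cKO against 10.4 to 12.4 FPKM in wild type. Endothelial markers summed to 81.6 to 103.5 FPKM in cKO against 103.3 to 132 FPKM in wild type, overlapping by a narrow margin. After scaling the endothelial sums lay apart, at 84.3 to 88.0 against 108.8 to 133, with 10 of 10 markers negative and 9 without overlap. So scaled, stroma had 10 of 10 markers negative and 10 without overlap, and surface epithelium 9 of 9 negative and 8 without overlap. Among all tested genes 13% were lower without overlap after scaling, and 50% had positive fold changes. The sums for germ cells, stroma, surface epithelium and the erythroid list were apart after scaling too. Macrophage markers summed to 18.0 to 23.5 and 20.4 to 27.4 FPKM. Adipocyte markers reached at most 2.25 FPKM in sum. Whether these differences have a part in the values of the glycolysis and pyruvate genes was not tested.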

How the data were processed

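Ovary RNA of 6 libraries (3 cKO, 3 wild type) was read from 1 table in which the authors deposited FPKM values per gene symbol. Per the submitters' processing notes, mm10, STAR 2.7.11a, HISAT2 2.2.1 and featureCounts 2.0.6 were used, without stated roles. The program that computed FPKM and the annotation are not given in the sources used here. FPKM is relative to all mapped fragments, so abundant transcripts in a library lower its other values.

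Genes that averaged 1 FPKM or more were tested with limma 3.58.1 in R 4.3.3 on log2(FPKM + 1), with an intensity trend, two-sided, with Benjamini-Hochberg adjustment over 12442 genes. Such fold changes understate the change of low genes. In simulated libraries with 200 genes changed, 16% of those changed 1.5-fold and 96% of those changed 2-fold were called without scaling, and the largest fold among the members was 1.51. The simulated noise was drawn independently for each gene. It lacked the difference between short and long transcripts seen in cKO replicate 1, so these rates may not hold for the real libraries. Depth was estimated from the smallest FPKM steps of 2437 genes with 1 annotated transcript of at least 1500 bases (GENCODE M21), assuming fragments of 200 bases. Promoter windows and gene coordinates came from RefSeq (GRCm38.p6, the same build as mm10).

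Values in every library are given for members with an unadjusted p under 0.05, with groups that do not overlap or with the highest mean of their role, and for some others by their range. Of the other lists the 3 genes with the smallest p are named, and genes named beyond this were chosen after their values were seen. The members and lists were chosen with earlier results of these data known. Alternatives were another pseudocount (0.1), no filter, a filter at 5 FPKM, 3 scalings, a fit with the replicate number as a block, omission of each library in turn, weighted libraries and a fit with no trend; median-of-ratios scaling without cKO replicate 1 was added after seeing the data.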

Additional observations from a re-analysis of the deposited data

How the results depend on the processing

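No member passed under any of 16 alternatives, and the smallest adjusted p of any member ran from 0.0565 (Pdk1, quantile normalization) to 0.483. The members with a positive fold change numbered 16 to 31 over the alternatives. The count of 15 called genes among all tested (6 higher, 9 lower) became 34 with a pseudocount of 0.1 FPKM, 1 without a filter, 23 with the minimum raised to 5 FPKM, 161 with median-of-ratios scaling (95 higher, 66 lower), 236 with quantile normalization (131 and 105), 149 with TPM rescaling (56 and 93), 5 without an intensity trend and 172 with library weights. With 1 library left out it ran from 2 to 95, the latter with scaling too: it was 89 without cKO replicate 1, 74 without cKO replicate 3, 4 without cKO replicate 2, and 2, 2 and 6 without wild type replicates 1, 2 and 3. With the replicate number as a block 2 genes passed. Whether the numbers pair the samples cannot be told from these values. The correlations of deviations between libraries of the same number were -0.01, 0.04 and 0.07. Between libraries of different numbers they ran from -0.07 to 0.03. The block led to no call among the members (Pdk1 limma adjusted p = 0.142). The fold change of Pfkfb2 turned to -0.016 with median-of-ratios scaling and to -0.13 with TPM rescaling. Of the 24 members whose fold changes were not printed, 15 changed sign under at least 1 alternative. Gpt2 was called with quantile normalization (0.59) and library weights (0.59), and Tktl1 without cKO replicate 3 (0.91). For these the cause was not tested. At the estimated depth of 14.5 to 28.6 fragments per FPKM (transcript of 2 kb), members near 1 FPKM rest on few fragments.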
